A study of Mus musculus with 16 samples.

Results

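The Hox genes were examined on 48 probe sets of 33 genes, out of 45101 probe sets on the array. A probe set was taken when the platform annotation gave it a single gene symbol made of Hox, a cluster letter and a number, whatever its intensity. The mouse gene table lists 39 such genes, and the other 6 had no such probe set and were not analysed as members. A single probe set covered 22 of the genes, 8 genes had 2, and Hoxc5, Hoxc6 and Hoxa3 had 3, 3 and 4.

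All 16 arrays carried total RNA of the mouse embryonic stem cell line E14tg2a, an Hprt-deficient, feeder-independent line grown as a culture. Labels name no treatment, time point or other allele. In the amplified group (n = 8) the RNA was diluted to 10 pg, about what 1 cell holds, and each array received cDNA from its own PCR amplification by the V1V3 method. The nonamplified group (n = 8) received 5 µg of the undiluted RNA, labelled without that step. The design asks how far measured expression departs when amplification starts from a single-cell amount. Replicates are technical, from 1 line and 1 kind of material, so p-values measure the spread between reactions and arrays, not between cultures. The arrays measure bulk RNA, in which fewer cells of a type and less RNA per cell cannot be told apart.

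Hox genes encode homeodomain transcription factors that give cells their position along the head-to-tail axis of the embryo. They lie in 4 clusters, A to D, and their order along each cluster matches the order in which they are switched on and the front-to-back order of their domains. In embryonic stem cells most of them are known to be held silent by Polycomb complexes on CpG-rich chromatin that carries both activating and repressive histone marks. They act with cofactors of the TALE class such as Pbx and Meis, and trithorax proteins oppose Polycomb at their promoters.

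The cell label was checked first. Summed over 13 probe sets of 8 embryonic stem cell markers, intensity ran from 29530 to 30800 on nonamplified arrays and from 40370 to 43690 on amplified arrays. Pou5f1, the factor Oct4 of the stem cell state, had 4159 ± 213 on nonamplified and 3155 ± 464 on amplified arrays (SD, n = 8 each). Its log2 ratio, amplified over nonamplified, was −0.41 (limma adjusted p = 0.0013). Sox2 was higher, with 4050 ± 138 on nonamplified and 5047 ± 327 on amplified arrays (SD, n = 8 each). Its log2 ratio was 0.31 (limma adjusted p = 0.00125). Of the 13 probe sets 5 were higher and 4 lower after amplification at a limma adjusted p under 0.05. That is 69.2%, beside 50.1% of all probe sets. Nanog, another factor of that state, was lower, at 276 ± 79.5 on amplified against 1776 ± 61.0 on nonamplified arrays. Utf1, a chromatin factor of stem cells, was higher at 1416899_at (8761 against 1814) and 1443786_at (2445 against 221). The median over all probe sets of an array was 51.7 ± 1.44 on nonamplified and 35.0 ± 1.07 on amplified arrays (SD, n = 8 each), so directions below depend on how arrays are scaled to each other. Intensities were used as deposited. The effect of other scalings is given for the Hox counts and for some of the named probe sets and lists.

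CpG density is the sequence feature through which Polycomb is known to find these genes. Promoter windows, from 250 bases before to 50 after a gene start, came from RefSeq (GRCm38.p6) for 19 of the 33 genes, in 21 windows. Of clusters B and C only Hoxb1, Hoxb4 and Hoxc4 had a window, so the values mainly describe clusters A and D. A window held a median of 15 CG dinucleotides (range 4 to 45), against a median of 7 over 32851 windows of all genes. GC content had a median of 58.0% in the Hox windows and 52.7% in all windows. The windows of Hoxa5 and Hoxa7 are shown because both genes had probe sets that changed between the groups, and because they differ in CG number, 29 against 9, with each CG in capitals. Both are on the minus strand, Hoxa5 at chr6:52204538-52204837 and Hoxa7 at chr6:52218524-52218823. The arrays measure RNA and say nothing about what binds there.
Hoxa5: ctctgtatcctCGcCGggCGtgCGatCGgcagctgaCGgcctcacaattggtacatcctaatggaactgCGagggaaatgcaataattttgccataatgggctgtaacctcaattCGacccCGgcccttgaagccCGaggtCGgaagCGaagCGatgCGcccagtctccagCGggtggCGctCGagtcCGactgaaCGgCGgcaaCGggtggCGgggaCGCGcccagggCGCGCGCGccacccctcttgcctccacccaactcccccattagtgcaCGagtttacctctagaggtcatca
Hoxa7: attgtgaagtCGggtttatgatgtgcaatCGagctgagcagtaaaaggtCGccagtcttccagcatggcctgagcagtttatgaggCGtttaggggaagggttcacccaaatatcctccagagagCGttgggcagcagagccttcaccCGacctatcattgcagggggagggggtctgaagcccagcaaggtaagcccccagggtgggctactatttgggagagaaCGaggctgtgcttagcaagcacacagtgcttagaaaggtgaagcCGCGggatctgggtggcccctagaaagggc

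Hox probe sets were dim in this RNA before any amplification. Nonamplified means over 8 arrays ran from 4.78 to 286.9, with a median of 24.0, while the median over all probe sets was 51.2. On each nonamplified array 13 to 17 of the 48 probe sets, 30.5% ± 2.72 (SD, n = 8), lay above that array's median, and 1 to 3 lay above its 75th percentile. On amplified arrays the corresponding numbers were 17 to 22 (41.7% ± 3.86, SD, n = 8) and 6 to 8. The counts above the median met at 17, while those above the 75th percentile did not overlap between the groups. Probes differ in how strongly they bind, so these positions describe probe sets and do not rank the genes by RNA level. The lowest value in the table, an intensity of 1, was reached by 7.03% ± 3.33 of Hox probe sets on nonamplified and 4.69% ± 2.43 on amplified arrays (SD, n = 8 each). Over all probe sets these shares were 2.55% ± 0.38 and 7.53% ± 0.60 (SD, n = 8 each).

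**Figure D1:**
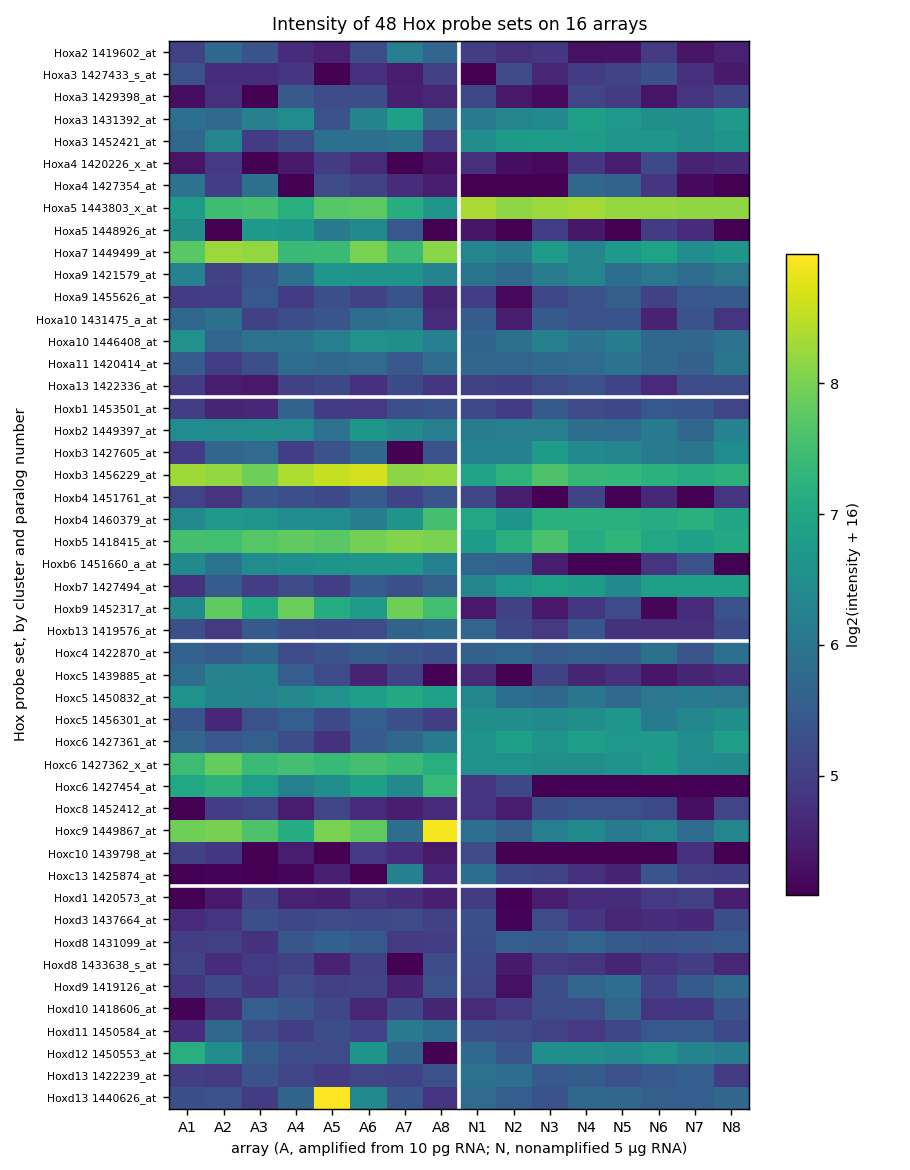
Each row is a Hox probe set, sorted by cluster (A to D, separated by white lines) and paralog number, and each column an array, with log2(intensity + 16) as colour. The left 8 columns are amplified and the right 8 nonamplified arrays. Among the pale cells, Hoxb3 1456229_at and Hoxa7 1449499_at are bright on all amplified arrays, Hoxa5 1443803_x_at on all nonamplified arrays, and Hoxd13 1440626_at on 1 amplified array.

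Hox probe sets differed between the groups in both directions. With limma fitted over all probe sets on log2(intensity + 16), where the log2 ratio is amplified over nonamplified, 14 Hox probe sets were higher and 9 lower in the amplified group and 25 did not pass (adjusted p threshold 0.05). That is 47.9% of the members, beside 50.1% of 45037 probe sets of any gene. By direction, 19.0% of all probe sets were higher and 31.1% lower. At least 2-fold differences were found for 12 Hox probe sets, 7 higher and 5 lower, where 26.1% of all probe sets passed in this way, 8.83% higher and 17.3% lower. For 12 members the values of both groups stayed apart on all arrays, 6 in each direction, against 25.7% of all probe sets, 10.1% higher and 15.6% lower. The median log2 ratio was 0.017 over Hox probe sets and −0.17 over all.

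The split between directions moved with scaling. Higher and lower calls among Hox probe sets numbered 21 and 6 under quantile normalization, 22 and 6 after centring arrays on their medians, and 20 and 6 after scaling on probe sets brighter than the median one. Scaled on the hybridization controls, an alternative chosen after seeing the data, they numbered 7 and 19. Over all probe sets 38.0% of calls were higher as deposited, and 57.0%, 65.7%, 58.4% and 15.7% under these scalings in turn. Median log2 ratios of Hox and of all probe sets were 0.41 and 0.12, then 0.43 and 0.24, then 0.31 and 0.13, and on the controls −0.41 and −0.59. Of the 23 calls, 13 were made in the same direction under all 4 scalings, 7 higher and 6 lower. They comprise all of the at least 2-fold calls except Hoxa5 1448926_at, plus Hoxa5 1443803_x_at and Hoxc6 1427362_x_at.

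Genes of paralog groups 1 to 4 pattern the hindbrain and neck. Of their 16 probe sets, 4 were higher and 3 lower, 43.75% called beside 50.1% of all probe sets. Hoxb3, which acts in hindbrain segments and pharyngeal arches, gave opposite answers at its 2 probe sets. At 1456229_at nonamplified values ran from 104 through a median of 136 to 181, and amplified values from 225 through 287 to 387. No amplified array came down to the nonamplified range, and the log2 ratio was 1.04 (SE 0.12, limma adjusted p = 1.46e-06). At 1427605_at nonamplified values ran from 48.6 through 62.5 to 94.4 and amplified values from 1 through 24.4 to 39.6. Here all amplified arrays lay below all nonamplified ones, with a log2 ratio of −1.09 (SE 0.21, limma adjusted p = 0.000356).

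Hoxa3, needed for thymus and parathyroid formation, was measured by 4 probe sets, of which 1452421_at was lower. It ran from 73.6 through 85.6 to 95.7 without amplification and from 14.7 through 40.01 to 64.8 with it, without overlap (log2 ratio −1.05, SE 0.18, limma adjusted p = 0.000125). The other 3 had log2 ratios of −0.45, −0.068 and 0.0020, none past the threshold. Hoxb4, known for expanding blood stem cells when overexpressed, also split. Its probe set 1460379_at went from 119 ± 16.3 to 86.5 ± 35.6 and 1451761_at from 8.46 ± 7.39 to 21.6 ± 5.26 (SD, n = 8 each), and both pairs of groups overlapped. Their log2 ratios were −0.44 (limma adjusted p = 0.0315) and 0.66 (limma adjusted p = 0.00353). The first call was lost under 3 of the 4 other scalings and when any of 9 single arrays was left out, down to −0.37 without amplified replicate 6 (limma adjusted p = 0.0631). Hoxa2 and Hoxb2, regulators of hindbrain segments, rose, with log2 ratios of 0.68 (SE 0.21) and 0.36 (SE 0.12), and neither passed on the hybridization control scale.

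Paralog groups 5 to 8 pattern the neck and thorax. Of their 15 probe sets 13 passed the test (86.7%, beside 50.1% of all probe sets), 8 higher and 5 lower. Their median nonamplified mean was 47.7, against 17.8 for groups 1 to 4 and 21.4 for groups 9 to 13. Hoxc6, a thoracic patterning gene, had 3 probe sets without overlap between groups. At 1427454_at 6 of 8 nonamplified arrays were at the lowest listed value of 1 and the highest read 19.7, whereas amplified values ran from 60.1 through 98.8 to 150. This was among the larger increases (log2 ratio 2.50, SE 0.20, limma adjusted p = 1.53e-08). At 1427362_x_at nonamplified values ran from 70.2 through 77.5 to 91.8 and amplified values from 126 through 158 to 210, a log2 ratio of 0.91 (SE 0.093). In contrast, 1427361_at ran from 73.9 through 88.3 to 100.7 without amplification and from 11.97 through 30.1 to 53.8 with it. All of its amplified arrays were lower (log2 ratio −1.19, SE 0.15, limma adjusted p = 2.87e-06).

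Hoxa5, required for lung development, again gave 2 opposite answers. At 1443803_x_at nonamplified values were tight, from 274 through 281 to 316, and amplified values spread from 84.5 through 145 to 199. Every amplified array was below every nonamplified one, with a log2 ratio of −0.96 (SE 0.15, limma adjusted p = 3.73e-05). At 1448926_at nonamplified values stayed between 1 and 16.01 with a median of 5.02. Of the amplified arrays 6 read from 26.6 to 89.9, and replicates 2 and 8 were at the lowest listed value (log2 ratio 1.30, SE 0.39, limma adjusted p = 0.0103). The groups therefore overlapped, and the call was lost when scaled on the hybridization controls (0.87, limma adjusted p = 0.0776).

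Hoxc5 had 3 probe sets that disagreed. Nonamplified values of 1456301_at ran from 52.2 through 74.4 to 85.5 and amplified values from 9.28 through 23.2 to 31.3, lower on all arrays (log2 ratio −1.20, SE 0.13, limma adjusted p = 5.74e-07). Both other probe sets were higher, 1450832_at from 47.7 ± 8.59 to 83.9 ± 21.0 and 1439885_at from 8.81 ± 4.76 to 30.5 ± 23.1 (SD, n = 8 each). Their log2 ratios were 0.63 (limma adjusted p = 0.000634) and 0.75 (limma adjusted p = 0.0341). The call of 1439885_at was lost when any of 8 single arrays was left out, for example without amplified replicate 3 (0.62, limma adjusted p = 0.0678). It was also lost with a pseudocount of 1 (limma adjusted p = 0.103). On the hybridization control scale neither higher call passed (1439885_at 0.33, limma adjusted p = 0.337, and 1450832_at 0.21, limma adjusted p = 0.369).

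Genes of the central groups with 1 probe set also went both ways. Hoxb7, a trunk patterning gene, ran from 65.3 through 97.3 to 102 without amplification and from 11.7 through 21.9 to 32.5 with it. Its amplified values all lay lower, and its log2 ratio of −1.48 (SE 0.13, limma adjusted p = 6.53e-08) was the most negative of the members. Hoxb6, beside it in the cluster, ran from 1 through 9.27 to 35.2 and then from 47.2 through 75.03 to 86.9, higher on all amplified arrays (log2 ratio 1.68, SE 0.25, limma adjusted p = 1.92e-05). Hoxa7, a gene of the thoracic domain, rose from a range of 54.9 to 106 (median 80.2) to a range of 154 to 290 (median 219). Those groups did not overlap either, and the log2 ratio was 1.27 (SE 0.16, limma adjusted p = 4.19e-06). Hoxb5, known from enteric neuron migration, went from 125 ± 25.0 to 207 ± 33.0 (SD, n = 8 each), with slight overlap and a log2 ratio of 0.67 (SE 0.12). On the hybridization control scale Hoxb5 did not pass (0.24, limma adjusted p = 0.335). Hoxc8, which had no probe set past the threshold, measured 16.3 ± 8.05 and 10.7 ± 6.38 (SD, n = 8 each).

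**Figure D2:**
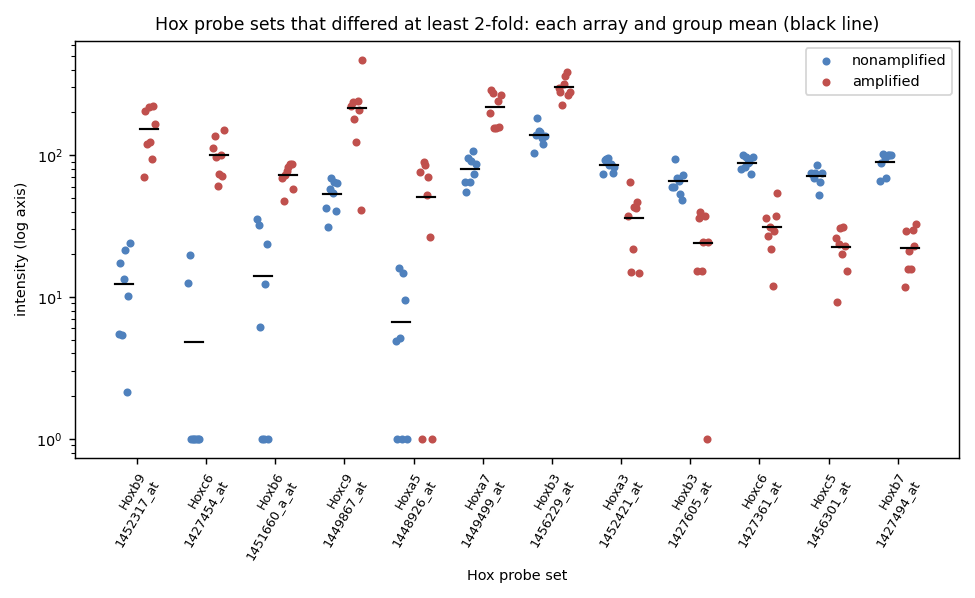
Points are single arrays and black lines group means for the 12 Hox probe sets that differed at least 2-fold, on a log intensity axis, sorted by log2 ratio from Hoxb9 on the left to Hoxb7 on the right. Colours separate nonamplified from amplified arrays. Only Hoxc9 and Hoxa5 1448926_at among these have overlapping groups, and points at 1 are at the lowest listed value.

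Paralog groups 9 to 13 pattern the lumbar to tail region, the limbs and the genital tract. Of their 17 probe sets 2 were higher, 1 was lower and 14 did not pass, 17.65% called beside 50.1% of all probe sets. Hoxb9, a gene of the thoracic to lumbar region, ran from 2.13 through 11.8 to 23.9 without amplification and from 70.4 through 145 to 222 with it. Its groups were well apart, and its log2 ratio of 2.53 (SE 0.23, limma adjusted p = 7.64e-08) was the most positive of the members. Hoxc9, which acts in motor neuron columns, ran from 31.3 through 55.7 to 68.9 and then from 41.2 through 215 to 470. Replicate 7 of the amplified group stayed within the nonamplified range while the other 7 arrays lay above it (log2 ratio 1.57, SE 0.31, limma adjusted p = 0.000446). Hoxa9, a gene of blood progenitors, had 2 probe sets with log2 ratios of 0.086 and −0.066, neither past the threshold. Of the 12 probe sets of groups 10 to 13, only Hoxd13 1422239_at passed, from 30.3 ± 9.51 to 18.4 ± 3.81 (SD, n = 8 each; log2 ratio −0.41, limma adjusted p = 0.0134). That call was lost under 3 of the 4 other scalings.

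The 25 Hox probe sets that did not pass had log2 ratios from −0.60 to 0.44 and nonamplified means from 4.83 to 76.7, with a median of 19.5. Hoxb1, a retinoic acid target of the hindbrain, measured 22.1 ± 4.66 without amplification and 17.7 ± 8.62 with it, and its groups overlapped. Hoxd1, of the same paralog group, measured 9.92 ± 5.15 and 8.55 ± 5.09. Hoxa4, a neck gene, had 1427354_at at the lowest listed value on 4 of 8 nonamplified arrays and 1 amplified array, with highest values of 37.3 and 45.7. Hoxc10, a lumbar gene, was at that value on 6 nonamplified and 2 amplified arrays, with highest values of 21.5 and 17.4. Hoxc13, needed for hair and nails, read from 7.54 to 42.0 on nonamplified arrays. On amplified arrays it read 1 on 3 and 59.7 on replicate 7 (log2 ratio −0.60, limma adjusted p = 0.0859). Hoxa10, needed for the uterus, had 0.38 and 0.30 on the log2 scale at its probe sets (limma adjusted p = 0.154 and 0.0954), and the limb and genital gene Hoxa13 had −0.24 (0.135). Limb genes Hoxd9, Hoxd10 and Hoxd11 measured 25.8 ± 12.6, 19.2 ± 8.64 and 21.4 ± 4.80 on nonamplified arrays and 16.7 ± 5.20, 15.5 ± 10.0 and 27.4 ± 15.2 on amplified arrays (SD, n = 8 each). In each of these genes the values of the groups overlapped, and the misses of the threshold do not show that the groups are alike.

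Counted by cluster, cluster A had 3 higher and 2 lower of 16 probe sets and B 6 and 3 of 11. Cluster C had 5 and 2 of 11, and D 0 and 2 of 10. The share called was 81.8% in cluster B and 63.6% in cluster C, above the 50.1% of all probe sets. It was below that in cluster A, at 31.25%, and in cluster D. The lower calls of cluster D were Hoxd13 1422239_at and Hoxd8 1431099_at (log2 ratio −0.31, limma adjusted p = 0.0439), the second chosen after its values were seen and lost under 3 of the 4 other scalings. Over all 26 alternatives the Hoxd8 call was kept in 8 and the Hoxd13 call in 21. Cluster D, whose genes pattern limbs and digits, had no difference of at least 2-fold, and its log2 ratios ran from −0.45 to 0.24. Its median nonamplified mean was 23.6, close to the 20.02 of cluster A and below the 49.9 of cluster B and 33.8 of cluster C. Differences between clusters were not tested.

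**Figure D3:**
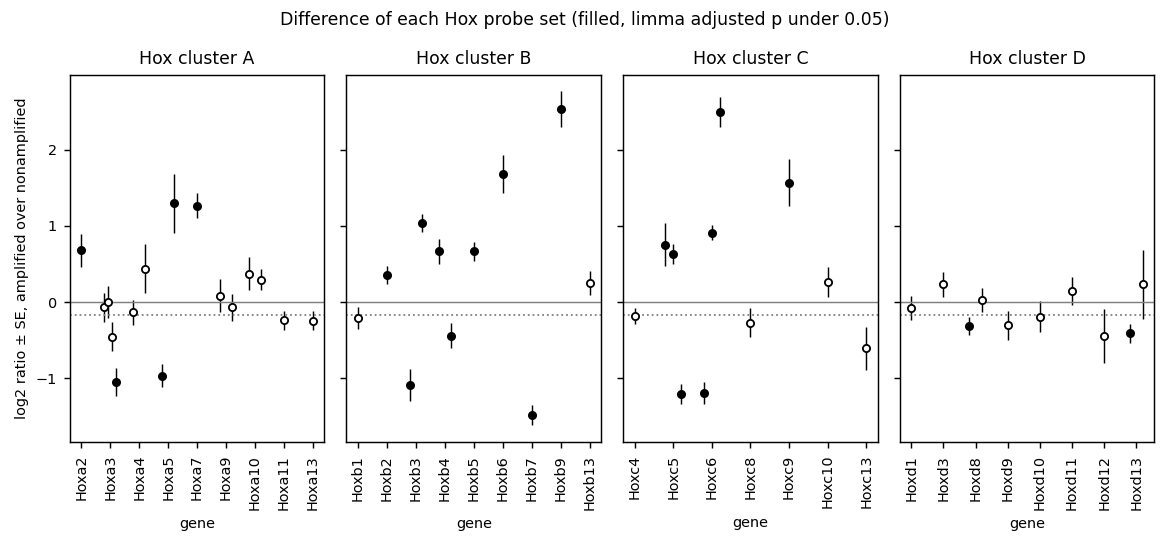
Each point is a Hox probe set, with log2 ratio (amplified over nonamplified) ± SE on the vertical axis and genes in order of paralog number, one panel per cluster. Filled points passed limma at adjusted p under 0.05, and the dotted line marks the median of all probe sets, −0.17. Probe sets of Hoxa5, Hoxb3, Hoxb4, Hoxc5 and Hoxc6 lie on both sides of 0.

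By gene, counting member probe sets only, 7 had a probe set called higher and none lower, 4 the reverse, 5 had both and 17 had none called. Those 5 were Hoxa5, Hoxb3, Hoxb4, Hoxc5 and Hoxc6. Among the 11 genes with several probe sets, the range of log2 ratio within a gene had a median of 1.05. Hoxc6 spanned 3.69, from −1.19 to 2.50. Some probe sets of a name ending in _x_at or _s_at are designed to match more than 1 transcript, and 5 of the 48 are of these types, among them Hoxa5 1443803_x_at and Hoxc6 1427362_x_at.

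Members also differed in how well separate amplifications repeated one another. The SD over arrays on the log2(intensity + 16) scale had a median of 0.36 on amplified and 0.28 on nonamplified arrays, against 0.42 and 0.18 over all probe sets. It was larger on amplified arrays for 33 of 48 Hox probe sets (68.8%) and for 82.5% of all probe sets. Hoxd13, a gene of digits and genitalia, varied most at 1440626_at (SD 1.36 on amplified, 0.15 on nonamplified arrays). Nonamplified values ran from 24.1 to 39.5, and 6 amplified arrays read from 12.2 to 34.6, while replicates 6 and 5 read 69.9 and 492. Hoxd12, its neighbour, had amplified values from 1 through 32.4 to 129 and nonamplified values from 25.8 through 65.2 to 80.4. Neither of these Hoxd probe sets passed the test between groups (limma adjusted p = 0.702 and 0.322). Across the 48 members, amplified and nonamplified mean log2 values correlated with r = 0.59 and rho = 0.55, a description across probe sets that share the same arrays. Over the 38134 probe sets whose nonamplified means span the range of the Hox ones, r was 0.55 and rho 0.57.

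**Figure D4:**
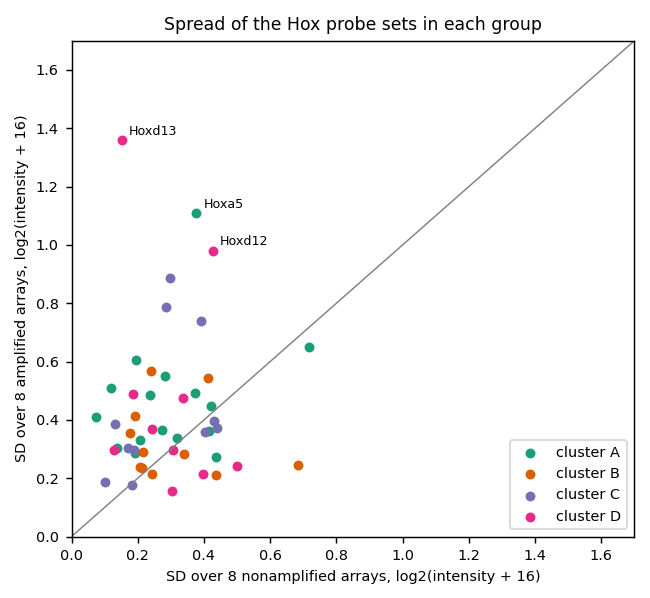
Each point is a Hox probe set, coloured by cluster, with its SD of log2(intensity + 16) over 8 nonamplified arrays on the horizontal axis and over 8 amplified arrays on the vertical axis. Points above the grey line of equality, 33 of 48, spread more after amplification, and Hoxd13, Hoxa5 and Hoxd12 lie highest.

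Transcripts from the opposite strand of the clusters were represented by 5 probe sets. Hoxa11os, read against the limb gene Hoxa11, ran from 13.4 through 27.4 to 47.8 without amplification and from 54.5 through 70.3 to 93.2 with it at 1452400_a_at, without overlap (log2 ratio 0.99, SE 0.15, limma adjusted p = 3.4e-05). Its other probe set had −0.12 and did not pass. Hoxa11 itself measured 39.3 ± 5.38 and 31.7 ± 9.33 (SD, n = 8 each; log2 ratio −0.24, limma adjusted p = 0.134). At 1430263_at Hoxd3os1 was lower (−0.46, limma adjusted p = 0.00731), and its other probe set and Hoxb5os did not pass.

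Cofactors and regulators also changed in both directions. Of 20 probe sets of 8 TALE cofactors, 5 were higher and 6 lower (median log2 ratio −0.20), 55.0% called beside 50.1% of all probe sets. Higher and lower calls were 8 and 5 centred on array medians, and 3 and 12 on the hybridization controls. Meis2, a Hox partner in limb and neural crest, had 4 probe sets. At 1457632_s_at it rose from 48.1 ± 5.27 to 414 ± 302 (SD, n = 8 each; log2 ratio 2.47, SE 0.32) and 1440091_at rose too (1.71), while 1417129_a_at (−0.59) and 1447861_x_at (0.31) did not pass. Pknox1, another TALE partner, fell from 85.0 ± 5.04 to 7.18 ± 3.52 at 1421233_at and from 177 ± 15.8 to 59.0 ± 41.3 at 1437470_at (SD, n = 8 each). Meis3, a hindbrain cofactor, fell from 214 ± 36.0 to 69.6 ± 24.3 (SD, n = 8 each; log2 ratio −1.46). Of 12 probe sets of trithorax genes 1 was higher and 4 lower (41.7% called). Dpy30, a core subunit of the H3K4 methyltransferase complexes, rose from 2216 ± 74.2 to 7413 ± 704 (log2 ratio 1.73), while both named probe sets of Ash2l, of the same complexes, fell (−1.95 and −1.57).

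Related homeobox genes of the ParaHox, Cdx and Evx families, listed together with Mnx1, had 0 higher and 3 lower of 11 probe sets. That is 27.3% called, beside 50.1% of all probe sets. Evx1, at the end of cluster A, went from 32.8 ± 4.57 to 16.4 ± 29.3 (SD, n = 8 each; log2 ratio −0.87, limma adjusted p = 0.0160), and Gsx2, a forebrain ParaHox gene, from 52.6 ± 5.68 to 31.4 ± 22.1 (−0.70, limma adjusted p = 0.0413). Both calls were lost under 3 of the 4 other scalings, and that of Gsx2 also with a pseudocount of 1, with the replicate block and when any of 10 single arrays was left out. Evx2 and the pancreas gene Pdx1 did not pass (−0.25 and 0.24). Calls in these families fell from 3 to 1 without amplified replicate 3 or without nonamplified replicate 1, 3 or 6. Genes flanking the clusters, which are unrelated to Hox genes in sequence, had 1 higher and 15 lower of 24 probe sets (66.7% called). Their median log2 ratio was −0.78. Higher and lower calls of the flanking genes were 5 and 10 centred on array medians, and 0 and 16 on the hybridization controls. Skap2, next to cluster A, fell at 1460623_at from 276 ± 28.2 to 42.2 ± 21.8 (SD, n = 8 each). Its probe set 1457097_at was the higher call of the list, without overlap (log2 ratio 0.30, limma adjusted p = 0.0118), and 1418895_at did not pass (0.87). Cbx5, the heterochromatin protein HP1 alpha near cluster C, fell at 4 of its 5 probe sets, at 1454636_at from 875 ± 74.9 to 259 ± 93.9 (SD, n = 8 each), and 1421932_at did not pass (0.33). Hibadh, a valine catabolism enzyme, fell at 1423780_at (−2.23) and did not pass at 1435967_s_at (−0.20).

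Markers of cells that express Hox genes in the embryo were measured beside these. Fibroblast markers, 15 probe sets of 8 genes, summed to 443.7 to 553.5 on nonamplified and 363 to 538 on amplified arrays, with 2 higher and 4 lower. Neural markers summed to 1075 to 1185 and 875 to 1687, with 4 higher and 6 lower of 17 probe sets. Mesoderm and streak markers summed to 257 to 351 and then 643 to 962, with 4 higher and 0 lower of 6. Mixl1, a streak gene, rose from 42.7 to 421. Endoderm markers summed to 340.2 to 464.6 and 495 to 655, with 6 higher and 3 lower of 17. Of 5 Afp probe sets, 1436881_x_at and 1416646_at were higher (log2 ratios 1.04 and 0.69) and the others did not pass. Among the latter, 1436879_x_at was at the lowest listed value on all amplified arrays. The share called was 58.8% for neural, 66.7% for mesoderm and 52.9% for endoderm markers, beside 50.1% of all probe sets. For fibroblast markers it was below that. Directions moved with scaling. In the order above, higher and lower calls were 5 and 1, 5 and 2, 5 and 0, and 10 and 1 after median centring. On the hybridization controls they were 1 and 7, 2 and 9, 2 and 1, and 3 and 7. All arrays carry the same material, and the part of other cells in the Hox values was not tested.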

How the data were processed

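Expression was measured on 16 Affymetrix arrays, 8 amplified and 8 nonamplified, grouped from the sample titles. The authors deposited linear intensities, 1 value for each probe set on each array, with a lowest value of 1. Which software summarised and scaled them is not given in the sources used here. The one-cycle assay gave the biotinylated cRNA, per the labels' protocols.

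Genes came from the platform annotation, with symbols updated through the RefSeq table of GRCm38.p6. A single symbol was held by 34958 probe sets, several by 932 and none by 9211. The 64 control probe sets were left out, and 45037 were tested without a level filter, since the members are defined without one. Values were transformed as log2(intensity + 16), which understates changes of dim probe sets, and fitted in R 4.3.3 by limma 3.58.1 (lmFit, eBayes; 2-sided), with Benjamini-Hochberg adjustment over all 45037 and a threshold of 0.05. A 2-fold difference is a log2 ratio of 1 or more, or −1 or less. The fit was tested on simulated data. Groups overlap unless all values of one lie above the other. Figures used matplotlib 3.10.9.

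Named Hox probe sets were those called at least 2-fold, the 8 with the highest nonamplified mean, the 3 with the highest amplified SD and all of genes called in both directions. From each of 4 other lists came the 2 brightest without amplification and the 2 that changed most, with Pou5f1, Sox2 and Nanog. Other genes in the text were chosen after their values were seen. Members and lists were chosen with earlier results of these data known. Alternatives were pseudocounts of 1 and 64, 4 scalings, 40th and 60th percentile filters, weights per group, a robust trend, the replicate number as a block, leaving out _x_at and _s_at probe sets, and leaving out each array. Same-numbered arrays did not deviate together (r from −0.0022 to 0.018 over 8 pairs). No scan date was used, so no batch was tested, and the number of arrays limits the precision.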

Additional observations from a re-analysis of the deposited data

Results flagged for a closer look

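Single arrays stood apart from the rest of their group in 8 of 86 groups examined (9.30%). Some probe sets were examined because of their spread or change, so this share cannot be set against chance. The criterion was Dixon's test of the gap to the nearest array over the range of 8. On amplified arrays these were the highest values of Hoxd13 1440626_at (492), Hoxc9 1449867_at (470), Hoxb4 1460379_at (170), Pou5f1 (4204) and Evx1 (88.2). On nonamplified arrays they were the lowest value of Hoxb4 1460379_at (83.1) and the highest values of Hoxc6 1427362_x_at (91.8) and Ash2l 1420615_at (122).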

How the results depend on the processing

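The number of Hox calls stayed between 19 and 28 under the alternatives other than the filters (23 as reported), and between 20 and 24 with any single array left out. With the replicate number as a block, the samples share only a number, since same-numbered arrays did not deviate together, and 20 Hox and 21495 of all probe sets were called. Amplified arrays correlated best with their own number in 3 of 8 cases. Filtering at the 60th percentile, by which fewer were tested, left 8 Hox calls of 8 tested and 10146 of 18015 in all. For cluster neighbours it left 8 of 14 and for TALE cofactors 4 of 6. For trithorax genes it left 3 of 9 and for ParaHox genes 0 of 0. Hoxb9 1452317_at was among those kept, with means of 12.4 on nonamplified and 153 on amplified arrays. A probe set bright in a single group could therefore pass this filter. The 8 calls of 8 are thus partly built in and cannot be set against the unfiltered share. ParaHox calls numbered 5 centred on the median (all higher), 5 scaled on the hybridization controls (all lower), 1 with the 40th percentile filter and 1 with the replicate block. They ranged from 1 to 4 with an array left out, with 1 call without amplified replicate 3 and without nonamplified replicates 1, 3 or 6. Trithorax calls rose to 8 under quantile normalization, median centring and scaling on brighter probe sets. Probe sets above the 75th percentile in place of the median numbered 7.12 and 1.62 per array (amplified and nonamplified means). At least 2-fold calls over all probe sets were 6215 with a pseudocount of 64, against 11753, and 3 against 12 for Hox. Of 570 values of 21 named Hox probe sets under alternatives, 541 stayed on the same side of the threshold and 28 lost the call. Another 1 gained a call (Hoxd12, −0.87 scaled on the hybridization controls), and 0 changed sign with a call in either fit. Without a call in any setting, Hoxd13 1440626_at kept its sign in 25 of 27 alternatives (log2 ratios from −0.21 to 0.64). Sox2 turned from 0.31 to −0.529 under quantile normalization and −0.11 on the hybridization controls, and Pou5f1 from −0.41 to 0.0010 with median centring. Causes of these shifts were not tested. Most members lie near the low end of the table, where signal over background limits what a difference can show.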
